A study of Rattus norvegicus with 15 samples.

Results

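The precursors of the main pain neuropeptides and the receptor for morphine-like peptides were followed through 15 RNA-seq libraries of rat lumbar spinal cord. The 6 genes were Tac1 (ENSRNOG00000007374), Calca (ENSRNOG00000011130), Penk (ENSRNOG00000008943), Pdyn (ENSRNOG00000026036), Sst (ENSRNOG00000001837) and Oprm1 (ENSRNOG00000018191). They were picked by identifier, by a rule that uses no measured value but was written with earlier results of these data known, all 6 were present in every library, and all 6 were among the 16522 genes, of 34202 rows, that passed a filter on low counts. The deposited tables carry identifiers without symbols. The symbols used here were assigned when the genes were chosen and were not checked against an annotation.

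Adult male Sprague-Dawley rats underwent chronic constriction injury (CCI), in which the left sciatic nerve is loosely ligated, or a sham operation that exposed the nerve only. Ligated rats received Yuan-Hu Zhi Tong Prescription (CCI+YZP, 10.8 g crude drug/kg), a preparation called YH (CCI+YH, 7.2 g crude drug/kg), a preparation called BZ (CCI+BZ, 3.6 g crude drug/kg) or none of these (CCI), over 5 days from postoperative day 6. The cord segments L4-L6 of the injured side were taken on day 10 and 3 libraries were made per group, from groups of 7 rats where the nerve was ligated. The sources used here do not say whether CCI and Sham rats were given a vehicle, nor what YH and BZ hold.

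In the dorsal horn of the spinal cord, pain signals from the body pass from primary sensory fibres to local neurons. Tac1 encodes substance P and neurokinin A, and Calca encodes calcitonin and, through alternative splicing, calcitonin gene-related peptide (CGRP). Both peptides excite spinal pain circuits. Much of the substance P and CGRP in the dorsal horn is made by sensory neurons whose cell bodies lie outside the cord, and motor neurons of the cord make CGRP too. Penk and Pdyn encode the precursors of the enkephalins, which act on delta and mu opioid receptors, and of the dynorphins, which act on kappa opioid receptors. Sst encodes somatostatin, a peptide of excitatory dorsal horn neurons, and Oprm1 encodes the mu opioid receptor, the main target of morphine.

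Promoter windows of 4 of the genes are shown because Tac1, Calca and Pdyn had the largest differences between ligated and sham rats, described below, and because the somatostatin gene is the textbook example of control by cyclic AMP through the element TGACGTCA, the cyclic AMP response element. The sequences are from RefSeq on the rat build GRCr8, 300 bases each, with 250 bases before and 50 from the start of the gene. Windows were found for 5 of the 6 genes, all except Penk. Capitals mark the 5-base core TGACG of the element on either strand.
Tac1, chr4:36645333-36645632, plus strand: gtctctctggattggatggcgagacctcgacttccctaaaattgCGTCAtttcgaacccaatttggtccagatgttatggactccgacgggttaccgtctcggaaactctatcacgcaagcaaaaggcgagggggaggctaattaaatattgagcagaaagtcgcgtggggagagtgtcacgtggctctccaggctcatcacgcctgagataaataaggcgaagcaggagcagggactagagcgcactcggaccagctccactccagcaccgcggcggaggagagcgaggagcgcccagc
Calca, chr1:178317480-178317779, minus strand: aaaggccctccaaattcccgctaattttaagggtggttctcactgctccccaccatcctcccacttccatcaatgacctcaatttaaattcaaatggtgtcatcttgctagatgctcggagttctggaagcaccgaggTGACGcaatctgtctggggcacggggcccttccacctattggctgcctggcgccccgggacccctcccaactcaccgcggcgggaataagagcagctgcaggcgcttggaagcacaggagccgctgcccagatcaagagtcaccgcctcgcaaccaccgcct
Pdyn, chr3:137366454-137366753, minus strand: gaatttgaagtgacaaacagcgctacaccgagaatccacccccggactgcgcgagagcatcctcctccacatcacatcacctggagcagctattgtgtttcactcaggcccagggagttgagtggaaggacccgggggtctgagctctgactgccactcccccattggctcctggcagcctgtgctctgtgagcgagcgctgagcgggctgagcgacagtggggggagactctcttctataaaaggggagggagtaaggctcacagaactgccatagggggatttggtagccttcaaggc
Sst, chr11:90461296-90461595, plus strand: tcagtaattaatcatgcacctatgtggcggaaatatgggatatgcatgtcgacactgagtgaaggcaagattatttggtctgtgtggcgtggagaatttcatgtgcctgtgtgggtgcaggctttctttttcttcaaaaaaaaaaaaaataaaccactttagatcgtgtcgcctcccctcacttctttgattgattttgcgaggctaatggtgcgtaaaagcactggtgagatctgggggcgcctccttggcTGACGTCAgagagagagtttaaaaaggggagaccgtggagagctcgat

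On both strands, the full element TGACGTCA was found in the Sst window, beginning at position 2 after the annotated start of the gene and not upstream of it, and in none of the Tac1, Calca, Pdyn or Oprm1 windows. It was present in 1.83% of 33469 windows of this length. The core TGACG, which is also contained in the full element, stood in 21.2% of windows. Tac1 and Calca each held 1 core, at positions -206 and -112 from the start of the gene. The Pdyn window held neither, and the motif TATAAA, present in 14.2% of windows, was found in Pdyn alone among these genes. The motif TGANTCA, present in 7.33% of windows, was found in none of them. These are matches of letters and were not tested for binding. The annotated starts were not checked against the sites where transcription begins, so positions hold only relative to the annotation.

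Library totals ranged from 15093246 to 22757104 counts, and levels are given below as CPM, counts scaled to a common library size after trimmed-mean normalization. Together the 6 genes took 0.0340% to 0.0712% of a library's counts. Oprm1 had 50 to 118 counts per library, so that counting error alone came to 14.1% at the lowest count and 9.21% at the highest. For the other genes the lowest count was 397 and the largest counting error 5.02%. The biological coefficient of variation, the spread between libraries of a group beyond counting error, was 44.5% for Calca, above that of 95.8% of the genes tested. It was 27.2% for Pdyn, 20.8% for Oprm1, 18.8% for Tac1, 16.9% for Sst and 13.2% for Penk, where the median gene had 11.3%.

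The libraries also differed along an axis shared by many other genes. The first principal component, computed without these 6 genes, held 20.8% of the variance, with scores of 9.09 to 31.1 in CCI libraries and -28.7 to -22.7 in Sham libraries. The scores fell into separate sets, 8 libraries at -9.71 or below and 7 at 9.09 or above, with a gap of 18.8 between them and no other gap over 8.26. All Sham libraries were in the lower set and all CCI libraries in the upper set. The upper set also held CCI+YZP replicate 2, CCI+YH replicates 1 and 3 and CCI+BZ replicate 1, and the other treated libraries were in the lower set. The 3 most abundant genes of a library took a share of its counts that was 6.78% to 7.55% in CCI and 8.49% to 9.60% in Sham, with no overlap. Markers of cell types could not be read without symbols. In bulk tissue, fewer cells of a type and less RNA per cell cannot be told apart.

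**Figure D1:**
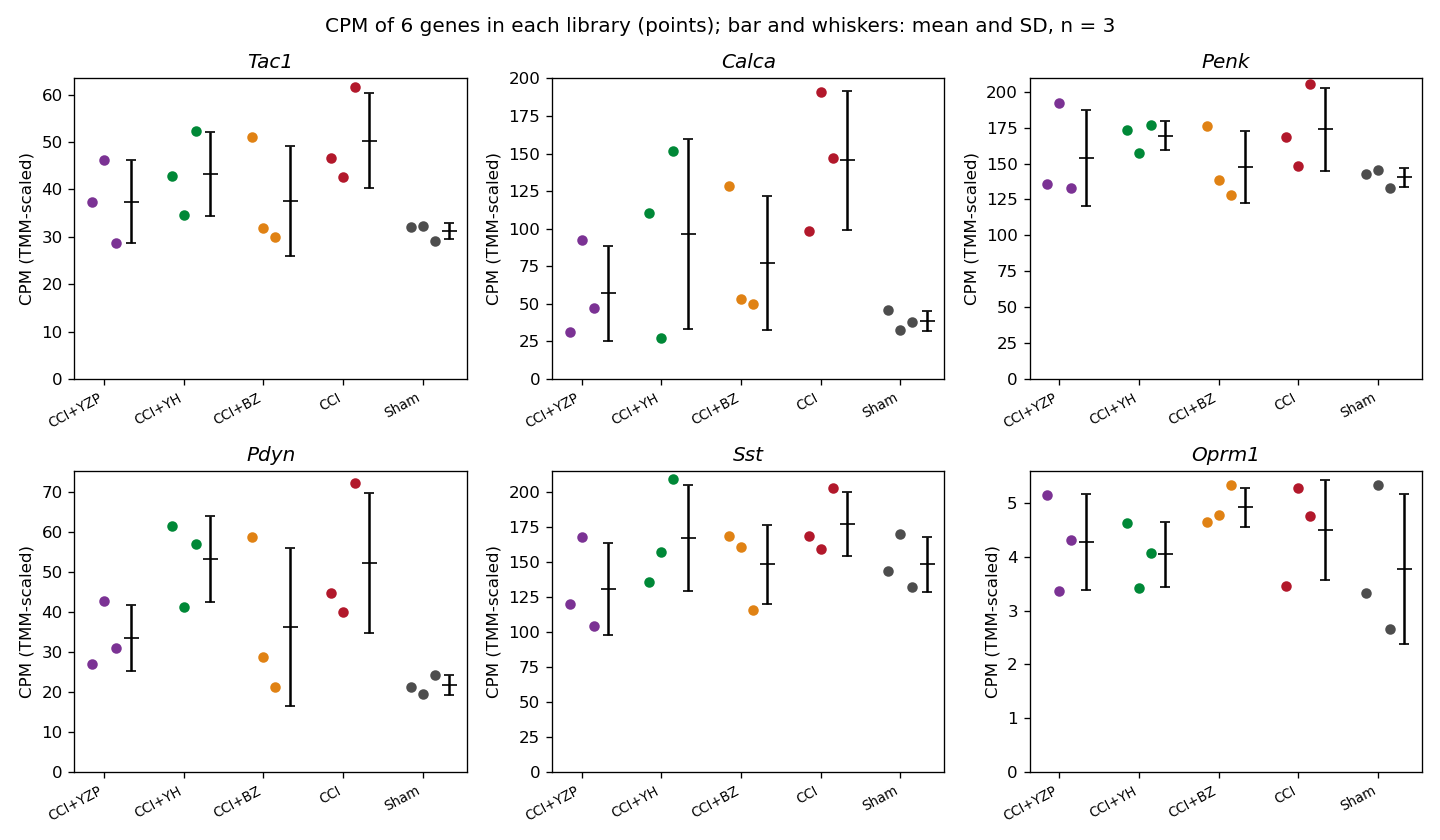
Levels of the 6 genes in CPM in each library (points, 3 per group) with the mean and SD of each group (bar and whiskers). Sham libraries lie close together for Tac1, Calca, Penk and Pdyn, and every CCI library lies above them, while treated libraries are spread widely, from 27.6 to 151.7 CPM for Calca in CCI+YH, with some below the lowest Sham library.

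Nerve ligation was compared with sham first. All 6 genes were higher on average in CCI than in Sham (49.7% of all genes had a fold change above 0), by 3.75-fold for Calca, 2.41-fold for Pdyn, 1.61-fold for Tac1 and under 1.25-fold for Penk, Sst and Oprm1. None of the 6 passed the adjustment for all genes in edgeR's quasi-likelihood test, where 0.0182% of genes tested did. At an unadjusted p under 0.05, 3 of the 6 were higher (Calca, Pdyn and Tac1), against 9.56% of all genes. In 4 of the 6 (these and Penk) every CCI library lay above every Sham library, which held for 13.2% of all genes. The median log2 fold change of the 6 was 0.50, beside 0.00 over all genes tested.

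For Tac1, the substance P precursor, CCI libraries held 46.6, 42.5 and 61.7 CPM, against 32.0, 32.3 and 29.2 CPM in Sham. The groups did not overlap, and the Sham libraries differed by 1.11-fold at most. The means were 50.3 ± 10.1 CPM in CCI and 31.2 ± 1.72 CPM in Sham (SD, n = 3 each), with log2 fold change 0.69 (SE 0.220, 95% interval 0.22 to 1.159, edgeR adjusted p = 0.157).

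Calca, which encodes CGRP, showed the largest difference of the 6 genes. Its level was 98.4, 190.9 and 146.9 CPM in the CCI libraries, against 46.0, 32.6 and 37.7 CPM in Sham. The lowest CCI library was above the highest Sham library, and the CCI libraries differed among themselves by 1.94-fold. The log2 fold change was 1.91 with a wide 95% interval of 0.72 to 3.09 (SE 0.551, edgeR adjusted p = 0.137). Counts per gene do not separate the calcitonin and CGRP transcripts, and reads of the related gene Calcb may be assigned to Calca.

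Of the opioid precursors, Pdyn differed more than Penk. Pdyn, which encodes prodynorphin, stood at 44.6, 39.9 and 72.3 CPM in CCI, against 21.3, 19.4 and 24.3 CPM in Sham. Its log2 fold change was 1.27 (SE 0.328, 95% interval 0.56 to 1.97, edgeR adjusted p = 0.122), and its unadjusted p of 0.00177 was the smallest of the 6 genes. Penk, which encodes proenkephalin, stood at 168.7, 148.0 and 205.1 CPM in CCI, against 142.8, 145.8 and 133.1 CPM in Sham. The groups were separated by a narrow gap, and the log2 fold change of 0.31 had a 95% interval of -0.017 to 0.63 (edgeR adjusted p = 0.304).

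Sst and Oprm1 overlapped between CCI and Sham. Somatostatin mRNA was at 168.8, 159.0 and 202.5 CPM in CCI, against 143.1, 170.1 and 132.0 CPM in Sham, with log2 fold change 0.25 (95% interval -0.17 to 0.67, edgeR adjusted p = 0.524). The mu opioid receptor mRNA was at 3.46, 5.28 and 4.75 CPM in CCI, against 3.33, 5.33 and 2.66 CPM in Sham, with log2 fold change 0.25 (95% interval -0.28 to 0.78, edgeR adjusted p = 0.626). The interval for Oprm1 leaves room for a rise to 1.71-fold and a fall to 0.825-fold.

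Other fits called some of these differences. DESeq2 called 3 of the 6 genes higher in CCI, with adjusted p of 0.0356 for Pdyn, 0.0470 for Tac1 and 0.0490 for Calca, where it called 2.95% of all genes in either direction. EdgeR fitted to the CCI and Sham libraries alone called the same 3 (adjusted p = 0.0128 for Calca, 0.0324 for Pdyn and 0.0415 for Tac1), against 2.67% of all genes. Without CCI+BZ replicate 1 the shared edgeR fit called Pdyn (adjusted p = 0.0333). That fit called 193 of 16751 genes, against 3 with all libraries, so the calls rose over all genes. When the share taken by the 3 top genes was added as a term, the log2 fold changes were 0.74 for Calca, 0.49 for Pdyn, 0.10 for Tac1, -0.05 for Penk and -0.17 for Sst. With this term the fit called 0 of 16522 genes, and the 6 genes had an edgeR adjusted p of 0.754 or more. The share taken by the 3 top genes did not overlap between CCI and Sham, so its part and that of ligation cannot be told apart.

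**Figure D2:**
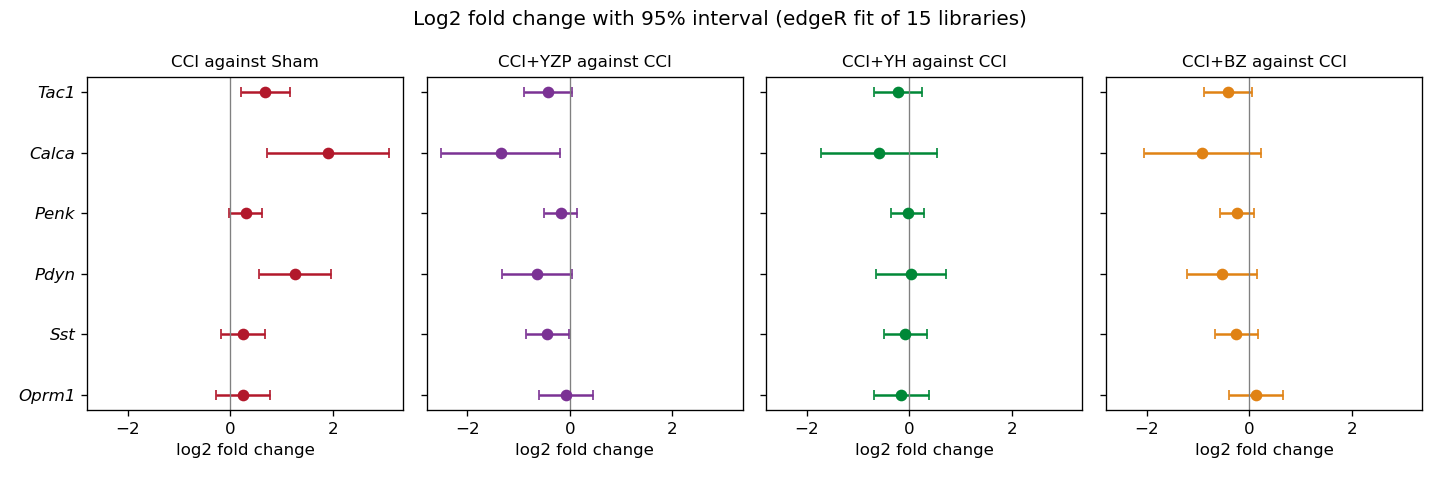
Log2 fold changes of the 6 genes (points) with 95% intervals (whiskers) in 4 comparisons from the edgeR fit of all 15 libraries; 0 means no difference. The intervals of Tac1, Calca and Pdyn lie above 0 for CCI against Sham, and those of Calca and Sst lie below 0 for CCI+YZP against CCI.

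The whole prescription was then set against untreated ligation. All 6 genes averaged lower in CCI+YZP than in CCI (49.5% of all genes had a fold change below 0), with a median log2 fold change of -0.43. EdgeR and DESeq2 called none of them, where edgeR called 0.00605% and DESeq2 0.109% of all genes. At an unadjusted p under 0.05, Calca and Sst were lower (2 of 6, against 3.77% of all genes in that direction). The comparison shares its CCI libraries with that of CCI against Sham.

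Calca stood at 31.1, 92.5 and 47.3 CPM in CCI+YZP, against 98.4, 190.9 and 146.9 CPM in CCI. It was the only gene of the 6 for which every CCI+YZP library lay below every CCI library, as was so for 7.43% of all genes. The log2 fold change was -1.35 (SE 0.539, 95% interval -2.51 to -0.19, edgeR adjusted p = 0.666). Sst was at 119.6, 167.9 and 104.3 CPM in CCI+YZP, against 168.8, 159.0 and 202.5 CPM in CCI, with log2 fold change -0.44 (95% interval -0.86 to -0.015, edgeR adjusted p = 0.694). Its CCI+YZP replicate 2 lay within the range of CCI.

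Tac1 was at 37.4, 46.2 and 28.7 CPM in CCI+YZP, against a mean of 50.3 CPM in CCI, with log2 fold change -0.43 (95% interval -0.90 to 0.044, edgeR adjusted p = 0.745). Pdyn was at 26.9, 42.8 and 30.8 CPM in CCI+YZP, against a mean of 52.3 CPM in CCI, with log2 fold change -0.64 (95% interval -1.33 to 0.053). Penk, at 135.9, 192.3 and 132.7 CPM in CCI+YZP, and Oprm1, at 5.15, 3.36 and 4.31 CPM, overlapped with the CCI libraries. In each of the 5 peptide genes CCI+YZP replicate 2 was the highest library of its group, and without it the log2 fold change against CCI was -1.89 for Calca, -0.66 for Sst and -0.37 for Penk, none of them called (edgeR adjusted p = 0.432 or more). Leaving out the highest library lowers the group in any case. In that fit 1370 of 16732 genes had an unadjusted p under 0.05, against 1146 with all libraries. Without CCI+YZP replicate 1 or replicate 3 instead, the value was -1.06 or -1.23 for Calca and -0.098 or -0.083 for Penk. On the first principal component CCI+YZP replicate 2 scored 22.9, beside -9.71 and -10.1 for the other CCI+YZP libraries.

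For YH against CCI, edgeR called 0 of the 6 genes and 0% of all genes, none of the 6 had an unadjusted p under 0.05 (5.59% of all genes did), and DESeq2 called none of the 6 and 0.0787% of all genes. Calca held 110.3, 27.6 and 151.7 CPM in CCI+YH, a 5.50-fold range, against 98.4 to 190.9 CPM in CCI. CCI+YH replicate 2 was lower for Calca than any Sham library. The other genes had log2 fold changes of -0.22 (Tac1) to 0.026 (Pdyn).

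Pdyn had the smallest difference of the 6. It was at 61.5, 41.1 and 56.9 CPM in CCI+YH, with a mean of 53.2 ± 10.7 CPM, against 52.3 ± 17.5 CPM in CCI (SD, n = 3 each), and the 95% interval of -0.66 to 0.71 on the log2 scale does not show that they are alike. Tac1 stood at 42.8, 34.5 and 52.3 CPM in CCI+YH, Penk at 173.5, 157.7 and 177.0 CPM, Sst at 135.4, 157.0 and 209.0 CPM, and Oprm1 at 4.63, 3.42 and 4.07 CPM. For each of these, the CCI+YH and CCI libraries overlapped.

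For BZ against CCI, edgeR and DESeq2 called 0 of the 6 genes, where they called 0% and 0.133% of all genes, and none had an unadjusted p under 0.05 (6.63% of all genes did). CCI+BZ replicate 1 stood apart from the other libraries of its group for Pdyn, Calca, Tac1 and Penk, but not for Sst or Oprm1. Pdyn was at 58.7, 28.6 and 21.3 CPM in CCI+BZ, against 39.9 to 72.3 CPM in CCI, Calca at 128.4, 53.0 and 49.9 CPM, and Tac1 at 51.0, 31.8 and 30.0 CPM. Replicate 1 lay within the CCI range for these 3 genes, and the other CCI+BZ libraries lay below the lowest CCI library for each.

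Penk was at 176.2, 138.4 and 128.3 CPM in CCI+BZ, and Sst at 168.5, 160.3 and 116.0 CPM. The log2 fold change of Pdyn against CCI was -0.53 (95% interval -1.21 to 0.16, edgeR adjusted p = 0.798). Without replicate 1 it was -1.06 (unadjusted p = 0.00165, edgeR adjusted p = 0.248), and that of Tac1 was -0.70 in place of -0.42. In that fit 2140 of 16751 genes had an unadjusted p under 0.05, against 1095 with all libraries. Replicate 1 was the highest of its group for both genes, so leaving it out lowers the group in any case. Replicate 1 scored 26.7 on the first principal component, beside -14.4 and -25.1 for replicates 2 and 3. Oprm1 was at 4.65, 4.78 and 5.33 CPM in CCI+BZ, its highest group mean, 4.92 ± 0.363 CPM, against 4.50 ± 0.937 CPM in CCI.

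With the 3 treated groups averaged, a comparison added after seeing the data, all 6 genes were lower than in CCI (50.7% of all genes were), with log2 fold changes of -0.95 for Calca (95% interval -1.84 to -0.070, edgeR adjusted p = 0.652) to -0.033 for Oprm1. EdgeR called 0 of the 6 here, as did DESeq2, where they called 0% and 0.151% of all genes, and only Calca had an unadjusted p under 0.05, against 3.84% of all genes in that direction.

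Against Sham, edgeR called none of the 6 genes in any treated group, where it called 0.0666% of all genes for CCI+YZP, 0.0424% for CCI+YH and 0% for CCI+BZ. In CCI+YH, Pdyn was 2.45-fold higher than in Sham (log2 fold change 1.29, 95% interval 0.59 to 2.0, unadjusted p = 0.00156, edgeR adjusted p = 0.152). DESeq2 called this difference (adjusted p = 0.0488) where it called 1.39% of all genes. EdgeR fitted to CCI+YH and Sham alone called it too (adjusted p = 0.0481, 0.0940% of all genes). So did the shared edgeR fit without CCI+BZ replicate 1 (adjusted p = 0.0362). There 101 of 16751 genes were called, against 7 with all libraries. Calca was 2.48-fold higher (unadjusted p = 0.0313, edgeR adjusted p = 0.337), so that 2 of 6 were higher at an unadjusted p under 0.05 in CCI+YH, against 7.20% of all genes. Tac1, Penk and Pdyn did not overlap between CCI+YH and Sham, as was so for 9.50% of genes in that direction.

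In CCI+YZP against Sham, no gene of the 6 had an unadjusted p under 0.05 (11.0% of all genes did) and DESeq2 called none (1.16% of all genes). Pdyn was the gene whose CCI+YZP libraries all lay above Sham (8.98% of all genes), at a log2 fold change of 0.63 (95% interval -0.078 to 1.34). In CCI+BZ against Sham, Pdyn alone had an unadjusted p under 0.05 (log2 fold change 0.74, 95% interval 0.034 to 1.45, edgeR adjusted p = 0.630), against 4.20% of genes in that direction. Without CCI+BZ replicate 1 the value for Pdyn was 0.20. Every CCI+BZ library was above every Sham library for Calca (5.34% of all genes), at a log2 fold change of 0.99 (95% interval -0.18 to 2.16), and DESeq2 called none of the 6 (0.139% of all genes).

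Between the treated groups, whose doses differed, edgeR called 0 of the 6 genes in any of the 3 pairs and none had an unadjusted p under 0.05, where 5.10% of all genes did for CCI+YZP against CCI+BZ, 3.56% for CCI+YZP against CCI+YH and 5.44% for CCI+YH against CCI+BZ. Adjusted calls in the same order covered 0.0182%, 0% and 0.0424% of all genes in edgeR and 0.139%, 0.0121% and 0.236% in DESeq2, which called none of the 6 either. The smallest p was that of Pdyn, which averaged 33.5 CPM in the CCI+YZP libraries (SD 8.26), against 53.2 CPM in the CCI+YH libraries (SD 10.7). Its log2 fold change was -0.66 (95% interval -1.36 to 0.029), with an edgeR adjusted p = 0.9998. Oprm1 was lower in every CCI+YH library than in any CCI+BZ library (4.74% of all genes in that direction), at a log2 fold change of -0.29 (95% interval -0.82 to 0.24).

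For Tac1 the order of the group means from low to high was Sham, CCI+YZP, CCI+BZ, CCI+YH and CCI. For Calca and Pdyn it also started with Sham, CCI+YZP and CCI+BZ, and the means of Pdyn in CCI (52.3 CPM) and CCI+YH (53.2 CPM) differed by less than their SDs. The order was Sham, CCI+BZ, CCI+YZP, CCI+YH and CCI for Penk, CCI+YZP, CCI+BZ, Sham, CCI+YH and CCI for Sst, and Sham, CCI+YH, CCI+YZP, CCI and CCI+BZ for Oprm1. Neighbours in these orders overlapped, except that Pdyn was higher in every CCI+YZP library than in any Sham library. Asked whether a gene differed among any of the 5 groups, edgeR gave adjusted p of 0.350 for Pdyn and 0.447 for Calca (unadjusted 0.00961 and 0.0318), and 0.516 or more for the other 4 genes, where 0.0908% of all genes were called and 10.5% had an unadjusted p under 0.05.

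The balance of the opioid precursors was read from the ratio of their counts within a library, which does not depend on depth or scaling. There were 19.8, 22.2 and 23.2 Pdyn counts per 100 Penk counts in CCI+YZP, 35.5, 26.1 and 32.2 in CCI+YH, 33.3, 20.7 and 16.6 in CCI+BZ, 26.5, 27.0 and 35.2 in CCI, and 14.9, 13.3 and 18.2 in Sham. Every CCI library and every CCI+YH library was above every CCI+YZP library, and every CCI+YZP library was above every Sham library. The mean ratio was 1.91-fold higher in CCI than in Sham. In CCI+YZP it was 0.736 times that in CCI, and 0.697 times that in CCI+YH.

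Such separations of 3 against 3 libraries give an exact two-sided permutation p of 0.10, the smallest this design allows, and 0.25 after adjustment over the 20 ratio comparisons made. The ratios are made of the levels given above, so they are not separate results. How many ratios of other genes separate as fully was not counted. For Calca counts per 100 Tac1 counts, CCI libraries held 211, 449 and 238, against 144, 101 and 129 in Sham. Both ratios were thus higher in every CCI library than in any Sham library. In CCI+YZP the Calca ratio was 83.2, 200 and 165, below every CCI library. In CCI+YH it was 258, 79.9 and 290, and in CCI+BZ 252, 167 and 166.

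**Figure D3:**
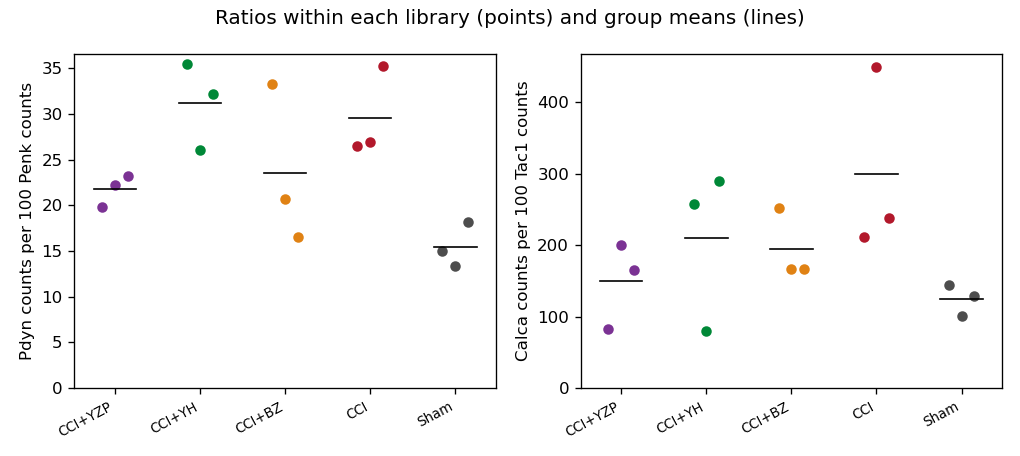
Pdyn counts per 100 Penk counts (left) and Calca counts per 100 Tac1 counts (right) in each library (points), with group means (lines). On the left the CCI+YZP libraries, at 19.8 to 23.2, lie below all CCI libraries and above all Sham libraries.

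Levels of the peptide genes went together over the 15 libraries. Of the 15 pairs among the 6 genes, 8 passed a permutation test of Pearson's correlation of log2 CPM (adjusted over 15 pairs), all between peptide genes. This test permutes libraries across groups and sets. The share of all gene pairs that pass it was not computed, so the count does not set these genes apart. Over all genes, 1042 had an absolute correlation of 0.8 or more with the first principal component. With group means subtracted and libraries permuted within groups, 6 pairs passed by Pearson's r and 4 by Spearman's rho. These 6 came down to 1 without any of CCI replicate 1 or 3, CCI+YZP replicate 2 or CCI+BZ replicate 1, 2 or 3, and to 2 without any of CCI+YZP replicate 1 or 3 or CCI+YH replicate 2. No pair with Oprm1 passed either way.

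Other genes were closer to these genes than they were to each other. Ranked by correlation over the 15 libraries, Tac1 was at rank 13 of 16521 genes for Penk and Penk at rank 51 for Tac1, but Calca was at rank 486 for Tac1 and Penk at rank 897 for Calca. No pooled coefficient is given for the pairs, because the libraries form the separate sets described above. Within the lower set of 8 libraries, r for Tac1 with Penk was 0.516 (rho = 0.690, exact permutation p = 0.192, adjusted p = 0.641) and 0.938 without the 2 libraries farthest from the median of Tac1. Within the upper set of 7 it was 0.732 (rho = 0.714, exact permutation p = 0.0675, adjusted p = 0.373) and 0.482 without the 2 farthest.

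For Penk with Pdyn, r was 0.434 in the lower set and 0.616 in the upper set (exact permutation p = 0.287 and 0.137), and both turned negative, to -0.801 and -0.389, without the 2 libraries farthest from the median of Penk. The p-values within sets were adjusted over 30 relations, and none of the 30 passed. The sets were drawn after seeing the data, along a score that the peptide genes follow, which narrows their range, so this count does not show that the genes vary apart within a set. How far the sets account for the pairs that passed over all libraries was not tested.

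Calca lay apart between the sets, at 92.5 to 190.9 CPM in the upper set and 27.6 to 53.0 CPM in the lower set. Tac1 did too, at 42.5 to 61.7 CPM and 28.7 to 37.4 CPM. The sets were cut along this main axis, and the share of all genes that lay apart was not computed. By absolute correlation with the first principal component over all 15 libraries, 95 of 16522 genes stood above Tac1, 117 above Pdyn, 364 above Penk, 668 above Calca, 3315 above Sst and 15073 above Oprm1. The median absolute correlation over all genes was 0.343. The ranking pools both sets and is a description. Within sets, 12 relations to the component were tested by exact permutation and adjusted together. Those of Tac1 in the upper set (r = 0.908) and Pdyn in the lower set (r = 0.849) passed, each with adjusted p = 0.0426. By Spearman's rho they did not (exact permutation, adjusted p = 0.0810 and 0.137), and the other relations passed neither way. The share of all genes that pass this test was not computed, so these calls do not set Tac1 or Pdyn apart. The part of the sets in the group differences above was not tested beyond the covariate fit. The covariate of that fit, the share taken by the 3 top genes, followed the component over the 15 libraries (rho = -0.882). The covariate fit and the split into sets are therefore not separate observations.

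**Figure D4:**
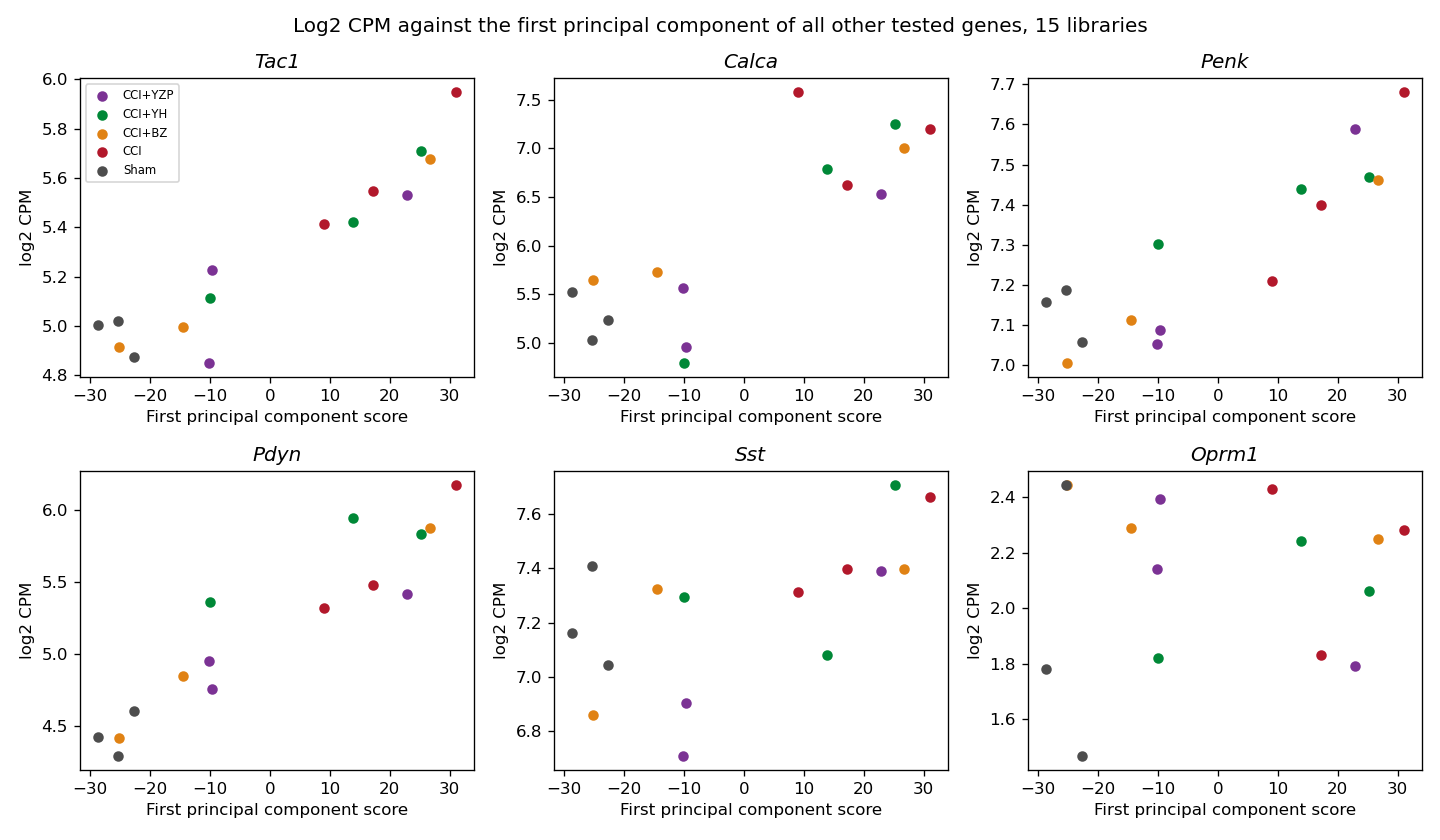
Log2 CPM of each gene against the score of its library on the first principal component of all other tested genes (15 libraries, coloured by group). The libraries form 2 sets with no score between -9.71 and 9.09. All Calca levels of the upper set (92.5 to 190.9 CPM) lie above those of the lower set (27.6 to 53.0 CPM). The same holds for Tac1 (42.5 to 61.7 CPM against 28.7 to 37.4 CPM), while Oprm1 levels of the sets overlap.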

How the data were processed

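The authors deposited raw counts per gene, 1 table per library. Genome build rn4 and DESeq2 1.16.1 are named per the submitters' processing notes; the sources used here name no aligner, counter, annotation or strand setting, and overlapping genes may share reads. Of 34202 rows, 1319 carried no Ensembl identifier.

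The counts of all 15 libraries were fitted with edgeR 4.0.16 in R 4.3.3 (filterByExpr with a minimum count of 10, TMM scaling, quasi-likelihood F tests, 1 coefficient per group, 10 residual degrees of freedom), with Benjamini-Hochberg adjustment over all 16522 genes and calls at 0.05. Each standard error is the fold change divided by the root of its F. Log2 CPM used a prior count of 2. Correlations over all libraries were tested with 100000 permutations, and those within sets of libraries exactly. Genes were named by membership. Alternatives were DESeq2 1.42.0, limma 3.58.1 (voom), other scalings, filters and fits, a replicate block and left-out libraries. The fit was tested on simulated data.

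The members and lists were chosen with earlier results of these data known. Lists of other peptides, receptors and cell type markers were not used, because identifiers could not be matched to symbols. Libraries of a group differed by a chi-square per gene of 7.06 to 27.0, so none was counted as a repeat. The labels do not say whether a library is 1 rat or a pool, so p-values measure the spread between these libraries, which may be technical.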

Additional observations from a re-analysis of the deposited data

How the results depend on the processing

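Members called at an adjusted p under 0.05 numbered 0 in every comparison in the shared edgeR fit, and this held under voom, other scalings and no filter on low counts. For CCI against Sham the number was 3 with DESeq2, 3 with only the groups compared, and 0 to 1 with a library left out. For CCI+YH against Sham it was 1 with DESeq2, 1 with only the groups compared, and 0 to 1 with a library left out. The cause was not tested. Over all genes, CCI against Sham gave 3 calls in the shared fit, 487 with DESeq2 and 428 with only the groups compared. With the top-3 share as a covariate, log2 fold changes turned to -0.053 (Penk) and -0.17 (Sst) for CCI against Sham, and to 0.068 (Tac1), 0.15 (Penk) and 0.14 (Sst) for CCI+YH against CCI. Leaving out a library gave -0.23 to 0.071 for Oprm1 in CCI+YZP against CCI, -0.14 to 0.10 for Penk, -0.14 to 0.33 for Pdyn and -0.27 to 0.050 for Sst in CCI+YH against CCI, and -0.028 to 0.27 for Oprm1 in CCI+BZ against CCI. Of 552 values from 24 fold changes under 23 alternatives, 529 kept sign and side. Related pairs with group means subtracted numbered 1 to 7 with a library left out. Replicate numbers did not pair the libraries (mean correlation -0.0084 over 30 same-numbered pairs, 3 of them over 0.1), and 4 of 15 libraries correlated best with their own number. With the replicate block, 0 members were called in any comparison, and CCI against Sham gave 2 calls over all genes. The fit of only the groups compared gives no value for the treated groups averaged or for all 5 groups. With 50 to 118 counts, Oprm1 is the gene that depth limits most.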
